A study of Mus musculus with 12 samples.

Results

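Lung fibroblast genes were followed in RNA of CD31+ cells from mouse lung through 5 members: Mfap4, Inmt, Fmod, Col1a1 and Col3a1. These are 5 of the 9338 distinct genes that the 4 deposited comparison tables list, and all 5 were found. The members were chosen by being listed: a table holds a gene only where its unadjusted p-value in the authors' DESeq2 test was under 0.05, so the contrast that lists a member also selected it. Fold changes of the members are therefore given as a description with a standard error (SE) and no p-value. These SEs come from fits to listed genes only and may be too small.

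CD31 is an adhesion molecule that endothelial cells carry on their surface and that some blood cells carry too. Cells of minced, enzyme-digested lungs were enriched with magnetic beads against it, and poly(A) RNA of 1 mouse made 1 library. There were 12 libraries, 3 in each of 4 groups. All mice were male, 30 weeks old, homozygous for a floxed Tet2 gene (TET2 fl/fl) on a C57Bl/6J background, and injected with tamoxifen (40 mg/kg on 3 days, when aged 6 to 8 weeks). WT chow and WT HFD mice lacked Cre. TET2 KO chow and TET2 KO HFD mice carried Cdh5-CreERT2, in which the promoter of VE-cadherin drives a tamoxifen-inducible recombinase in endothelial cells, so the deletion was directed at endothelial cells. Chow supplied 13% of energy as fat, and the high-fat diet (HFD) supplied 60% for 20 weeks. Reads counted on genes came to between 36.7 and 56.8 M per library, and WT HFD replicate 1 was the deepest.

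Fibroblasts build the scaffold of the lung. They secrete fibrillar collagens, the small proteoglycans that set how collagen fibrils assemble, and the microfibrils around which elastic fibres form. In mouse lung, alveolar fibroblasts near the gas-exchange surface and adventitial fibroblasts around vessels and airways express partly different sets of these genes, and mesothelial cells on the lung surface share some of them. Mfap4 encodes a glycoprotein of microfibrils and elastic fibres. Inmt encodes indolethylamine N-methyltransferase, a small-molecule methyltransferase abundant in lung. Fmod encodes fibromodulin, a small leucine-rich proteoglycan that binds collagen. Col1a1 and Col3a1 encode chains of the fibrillar collagens of types I and III.

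In the files, Mfap4 (ENSMUSG00000042436) lies at chr11:61485431-61488900 on the forward strand of GRCm38 and Inmt (ENSMUSG00000003477) at chr6:55170626-55175043 on the reverse strand. Fmod (ENSMUSG00000041559) lies at chr1:134037254-134048277, Col3a1 (ENSMUSG00000026043) at chr1:45311538-45349706 and Col1a1 (ENSMUSG00000001506) at chr11:94936224-94953042, all on the forward strand. Mfap4 overlaps Mapk7 on the opposite strand, and whether counting used the strand is not given in the sources used here, so reads of this pair may not be told apart. Col3a1 also holds the microRNA gene Gm47302.

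RefSeq promoter sequences (GRCm38.p6) were matched by symbol for 3 members, Inmt, Fmod and Col3a1. The 250 bases before the start site are shown because Fmod and Col3a1 had lower values together in TET2 KO mice on chow, while Inmt had another pattern. They are written 5′ to 3′ along the gene's strand, and capitals mark matches, on either strand, to the TATA motif TATAAA, the CCAAT box, the GC box GGGCGG or the E-box motif CAGCTG, which do not overlap each other in these windows.
Fmod, chr1:134037004-134037253, forward strand: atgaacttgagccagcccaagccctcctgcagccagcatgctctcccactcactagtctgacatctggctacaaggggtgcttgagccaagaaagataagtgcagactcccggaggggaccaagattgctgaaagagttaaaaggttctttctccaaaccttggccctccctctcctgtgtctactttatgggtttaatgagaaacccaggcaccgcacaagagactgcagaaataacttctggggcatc
Col3a1, chr1:45311288-45311537, forward strand: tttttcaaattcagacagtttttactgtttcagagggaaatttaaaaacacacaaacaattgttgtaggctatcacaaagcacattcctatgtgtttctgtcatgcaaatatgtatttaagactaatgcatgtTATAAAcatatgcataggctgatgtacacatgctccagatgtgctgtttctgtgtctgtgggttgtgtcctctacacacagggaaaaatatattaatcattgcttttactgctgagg
Inmt, chr6:55174991-55175240, reverse strand: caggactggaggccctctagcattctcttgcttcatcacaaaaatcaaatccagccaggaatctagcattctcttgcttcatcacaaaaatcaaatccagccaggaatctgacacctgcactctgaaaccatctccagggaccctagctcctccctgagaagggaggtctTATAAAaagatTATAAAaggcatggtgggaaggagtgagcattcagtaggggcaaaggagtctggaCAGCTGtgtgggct
None of the 4 motifs was found in the Fmod window. TATAAA was found at -117 in the Col3a1 window and at -80 and -69 in the Inmt window, counted from the RefSeq start site to the first base of the match. CAGCTG was found at -14 in the Inmt window. Among 32851 RefSeq promoters, 12.4% held TATAAA in a window of this length, 33.8% held CCAAT, 32.7% held GGGCGG and 13% held CAGCTG. The windows of Fmod, Col3a1 and Inmt had GC contents of 51.2%, 35.2% and 48%, against a median of 52.4% over all promoters. The RefSeq start sites of Fmod and Col3a1 were the first bases of the genes in the files, and that of Inmt lay 53 bases inside. These matches are a description of the sequence only.

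Levels are given in FPKM, reads on a gene scaled to its length and to the library's total, which the authors computed and which can be set side by side between genes. A library had the same FPKM in every table that lists a gene, so values could also be joined across tables. This gave Mfap4, Inmt and Fmod in all 12 libraries, Col3a1 in 9 (no value in WT HFD) and Col1a1 in 6 (chow only). Tet2 itself is listed only for HFD against chow in WT. Its level was 4.73, 5.18 and 5.15 FPKM in WT chow and 6.07, 6.32 and 6.71 FPKM in WT HFD, and TET2 KO libraries have no value for it in the tables used. The tables of TET2 KO against WT hold only genes with an unadjusted p under 0.05 and Tet2 is in neither, so that they give no check of the genotype labels. Which part of the gene its reads come from is not given in the files.

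The 5 genes were at low levels beside Pecam1. This gene, which encodes CD31, lay between 36.0 and 146 FPKM in the 9 libraries with a value, whereas the highest value of any member was 9.49 FPKM, for Inmt. Within a library Pecam1 was between 7.58 and 62.3 times as high as Inmt and between 48.6 and 1000.1 times as high as Fmod. Not every endothelial marker was that high: Emcn (endomucin) lay between 1.96 and 9.52 FPKM, overlapping the range of Inmt (0.901 to 9.49). Other genes of the fibroblast lists covered a wide range of levels. Pdgfra, a receptor that marks many lung fibroblasts, lay between 0.0832 and 0.629 FPKM and Dcn (decorin, a collagen-binding proteoglycan) between 1.20 and 4.30 FPKM where it has values. Mgp lay between 6.60 and 19.0 FPKM, and Thy1 (16.5 to 39.4), Fn1 (13.9 to 89.7) and Ly6c1 (36.7 to 206), which other cell types of the lung express too, were higher still. In bulk RNA, fewer cells of a type and less RNA per cell cannot be told apart.

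**Figure D1:**
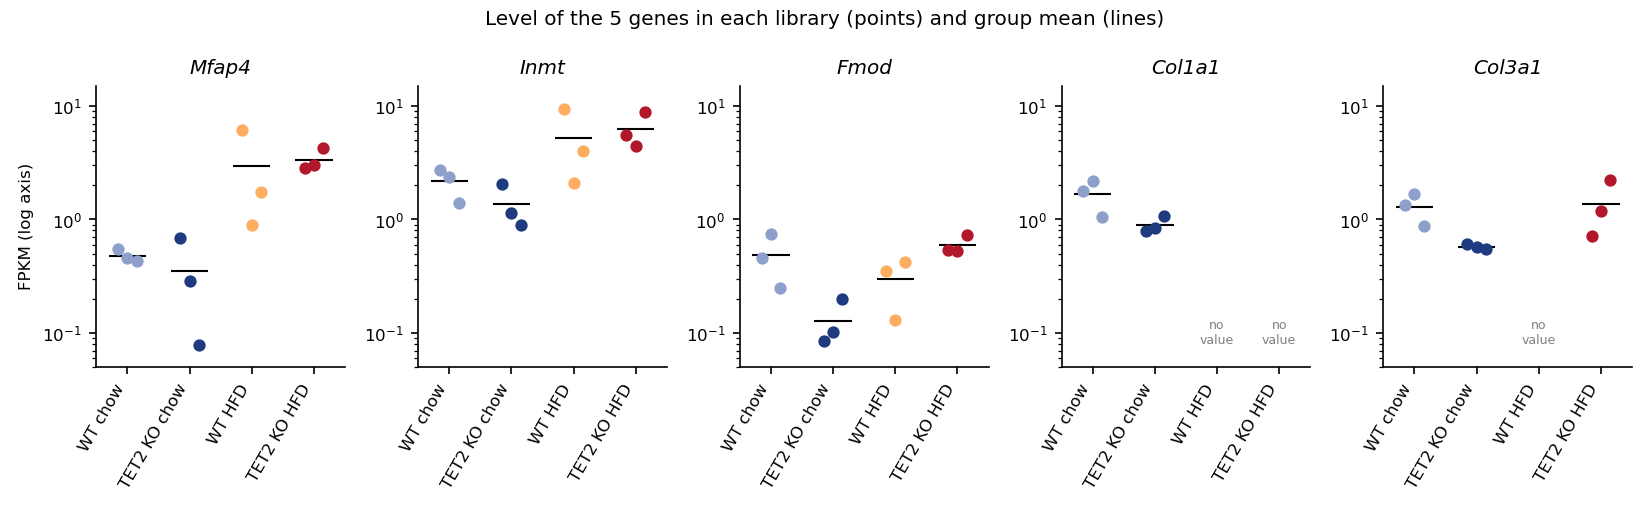
FPKM (log axis) of Mfap4, Inmt, Fmod, Col1a1 and Col3a1 in each library (points, in order of replicate number) with the mean of each group of 3 libraries (lines). Mfap4 and Inmt have higher means in both HFD groups than in the chow groups. WT HFD replicate 1 stands above the other WT HFD libraries for both, and Inmt overlaps between WT chow and WT HFD. Fmod and Col3a1 (no value in WT HFD) have their lowest means in TET2 KO chow.

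Mfap4 and Inmt had higher mean levels on HFD than on chow in both genotypes. Mfap4 measured 0.546, 0.453 and 0.427 FPKM in WT chow and 6.18, 0.894 and 1.75 FPKM in WT HFD. The WT groups did not overlap, but 1 library, WT HFD replicate 1, was far above the other HFD libraries of that genotype. In TET2 KO mice Mfap4 measured 0.683, 0.289 and 0.0789 FPKM on chow and 2.83, 2.99 and 4.27 FPKM on HFD. Again every HFD library was above every chow library, and here the HFD libraries lay close together while the chow libraries spread widely. The low value rested on few reads: Mfap4 had 6 reads in TET2 KO chow replicate 3 and 675 in WT HFD replicate 1.

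The log2 fold change of Mfap4 for HFD against chow was 2.64 (SE 0.70, n = 3 per group) in WT and 3.25 (SE 0.61, n = 3 per group) in TET2 KO. Without WT HFD replicate 1 the value in WT was 1.48. In TET2 KO the value was 4.19 without TET2 KO chow replicate 1 and 2.79 without TET2 KO chow replicate 3. Ordered by mean level, Mfap4 was highest in TET2 KO HFD (3.37 ± 0.792 FPKM, SD, n = 3), followed by WT HFD (2.94 ± 2.84), WT chow (0.475 ± 0.0625) and TET2 KO chow (0.350 ± 0.306). Neither the pair of HFD groups nor the pair of chow groups differed by more than its spread. The diet effects in the 2 genotypes differed by 0.61 on the log2 scale with an SE of 0.93, larger in TET2 KO and smaller than its error.

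Inmt was the most abundant member and had the same order of groups as Mfap4. Its level was 2.72, 2.37 and 1.39 FPKM in WT chow and 9.49, 2.09 and 4.05 FPKM in WT HFD. These groups overlapped, because WT HFD replicate 2 lay below 2 of the chow libraries. In TET2 KO mice Inmt measured 2.04, 1.15 and 0.901 FPKM on chow and 5.53, 4.42 and 8.78 FPKM on HFD, with no overlap. The log2 fold change for HFD against chow was 1.28 (SE 0.55, n = 3 per group) in WT and 2.20 (SE 0.38, n = 3 per group) in TET2 KO. Leaving out single libraries moved the WT value between 0.51 and 1.66, the lowest without WT HFD replicate 1, and the TET2 KO value between 1.87 and 2.61. The mean levels were 6.24 ± 2.26 FPKM in TET2 KO HFD, 5.21 ± 3.83 in WT HFD, 2.16 ± 0.688 in WT chow and 1.36 ± 0.597 in TET2 KO chow (SD, n = 3 each). The diet effect was larger in TET2 KO by 0.92 on the log2 scale (SE 0.67), and this difference was not tested.

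Neither gene is listed for TET2 KO against WT, on either diet. The difference of mean log2(FPKM + 0.1) between TET2 KO and WT was -0.60 for Mfap4 and -0.66 for Inmt on chow, and 0.59 for Mfap4 and 0.46 for Inmt on HFD. Two-sided exact permutation tests gave p = 0.5, 0.2, 0.5 and 0.5, all 0.5 after Benjamini-Hochberg adjustment over 5 such contrasts. With 3 libraries against 3 these tests cannot go below 0.1, and the groups overlapped in all of these contrasts. Not being listed also selected the contrasts, so their p-values are no evidence that the genotypes do not differ. Both HFD differences rested on 1 library, since without WT HFD replicate 2 they became -0.00086 for Mfap4 and -0.050 for Inmt. The chow difference of Mfap4 was -0.055 without TET2 KO chow replicate 3 and -1.12 without TET2 KO chow replicate 1. For Inmt the same omissions gave -0.42 and -0.97.

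Fmod had lower levels in TET2 KO mice than in WT mice fed chow, and higher levels than in WT mice fed HFD. On chow it measured 0.455, 0.741 and 0.248 FPKM in WT and 0.0850, 0.102 and 0.199 FPKM in TET2 KO. On HFD it measured 0.352, 0.130 and 0.424 FPKM in WT and 0.541, 0.523 and 0.730 FPKM in TET2 KO. In neither pair did the groups overlap, and the TET2 KO chow libraries held only 12 to 26 reads on the gene, against 68 to 92 in TET2 KO HFD. The log2 fold change for TET2 KO against WT was -1.91 (SE 0.51, n = 3 per group) on chow and 0.99 (SE 0.43, n = 3 per group) on HFD. The value on HFD was 0.63 without WT HFD replicate 2. The genotype effect on HFD exceeded that on chow by 2.90 on the log2 scale (SE 0.66), a difference that was not tested.

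The same shape appears when Fmod is read by diet, in contrasts that share these libraries. In TET2 KO the log2 fold change for HFD against chow was 2.22 (SE 0.40, n = 3 per group). In WT the gene is not listed, and the difference of mean log2(FPKM + 0.1) was -0.53 with overlapping groups (two-sided exact permutation p = 0.4, adjusted p = 0.5). It was -0.17 without WT HFD replicate 2 and -0.21 without WT chow replicate 2. Not being listed selected this contrast, so nothing is read from its p-value. By mean level the order was TET2 KO HFD (0.598 ± 0.115 FPKM), WT chow (0.482 ± 0.248), WT HFD (0.302 ± 0.153) and TET2 KO chow (0.129 ± 0.0613) (SD, n = 3 each). Neighbours in this order overlapped, and groups further apart in it did not.

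On chow the collagen chains, like Fmod, had lower levels in TET2 KO mice than in WT mice. Col3a1 measured 1.34, 1.68 and 0.878 FPKM in WT chow and 0.604, 0.571 and 0.546 FPKM in TET2 KO chow. All TET2 KO libraries lay below all WT libraries and within a narrow range. The log2 fold change was -1.18 (SE 0.25, n = 3 per group). Col1a1 measured 1.78, 2.18 and 1.05 FPKM in WT chow and 0.792, 0.842 and 1.07 FPKM in TET2 KO chow. Here the groups overlapped, through WT chow replicate 3 and TET2 KO chow replicate 3. The log2 fold change of Col1a1 was -0.89 (SE 0.29, n = 3 per group), and it lay between -1.14 and -0.66 when single libraries were left out. These genes had more reads than Fmod, with 222 to 526 on Col1a1 and 212 to 605 on Col3a1 in the chow libraries.

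In TET2 KO mice Col3a1 was higher on HFD, with 0.717, 1.19 and 2.23 FPKM against the chow values above and no overlap. The 3 HFD libraries were spread over a wide range. Its log2 fold change for HFD against chow was 1.27 (SE 0.38, n = 3 per group), and it lay between 0.74 (without TET2 KO HFD replicate 3) and 1.58 when single libraries were left out. The mean was 1.38 ± 0.775 FPKM in TET2 KO HFD, 1.30 ± 0.402 in WT chow and 0.573 ± 0.0290 in TET2 KO chow (SD, n = 3 each), and the former 2 differed by less than their spread.

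**Figure D2:**
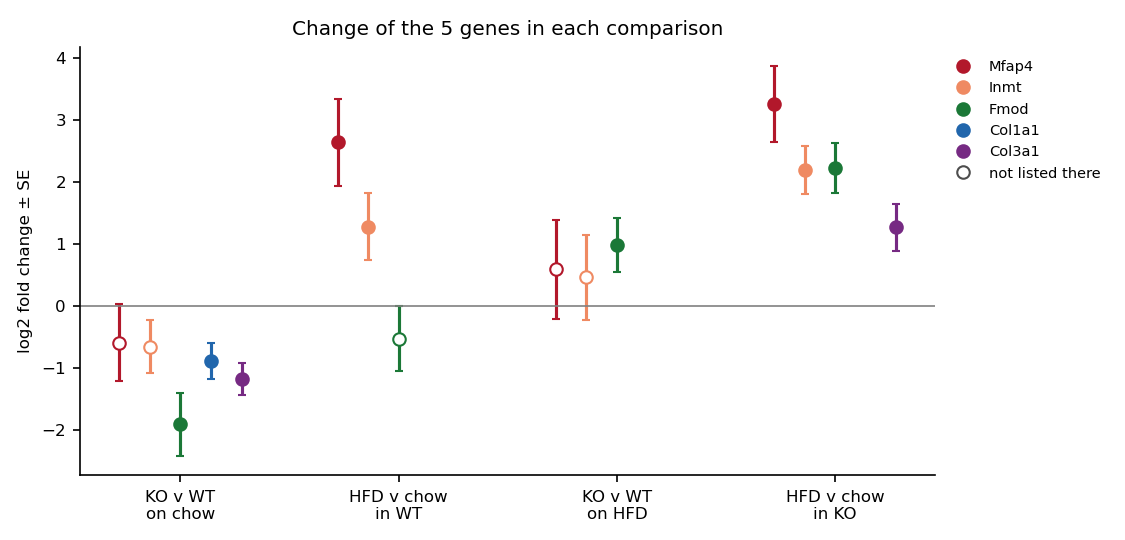
Log2 fold change with its SE (bars) of each gene in the 4 comparisons. Filled points are edgeR values where the gene is listed, and open points are differences of mean log2(FPKM + 0.1) where it is not. Mfap4 and Inmt lie above 0 in both diet comparisons, and Fmod lies below 0 for KO against WT on chow (-1.91) and above 0 on HFD (0.99).

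Counted over the tables, 3 members are listed for genotype on chow, 2 for HFD against chow in WT, 1 for TET2 KO against WT on HFD and 4 for HFD against chow in TET2 KO. Libraries of the groups did not overlap for 2 of 3, 1 of 2, 1 of 1 and 4 of 4 of them. Among all listed genes the groups did not overlap for 74.7%, 86.5%, 75.5% and 72.8% in the same order, and since listing chose both the members and this background, nothing is read from these counts. The comparisons share groups: WT chow serves 2 of them, and so does every other group.

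For description the members are taken as 2 sets by where they are listed. Mfap4 and Inmt are listed for both diet comparisons, and Fmod, Col1a1 and Col3a1 for TET2 KO against WT on chow. On log2(FPKM + 0.1), Mfap4 and Inmt had a Pearson r of 0.96 over 12 libraries, between 0.95 and 0.97 when single libraries were left out. Fmod and Col1a1 had an r of 0.99 over 6 chow libraries, Col1a1 and Col3a1 0.94 over the same 6, and Fmod and Col3a1 0.84 over 9. Between the sets r was lower and less stable. It was 0.51 for Mfap4 and Fmod and 0.65 for Inmt and Fmod over 12 libraries, 0.53 for Mfap4 and Col3a1 and 0.67 for Inmt and Col3a1 over 9, and 0.17 for Mfap4 and Col1a1 and 0.62 for Inmt and Col1a1 over 6. Without single libraries the value for Mfap4 and Col1a1 lay between 0.026 and 0.53, and that for Inmt and Col1a1 between 0.48 and 0.87. For Mfap4 and Col3a1 it lay between 0.28 and 0.69, and for Inmt and Col3a1 between 0.46 and 0.84. The value for Fmod and Col3a1, within a set, lay between 0.80 and 0.94, so that ranges within and between the sets overlapped. Libraries of a pair share depth and cell composition, the groups differ by selection, and these correlations are descriptions. The group differences that chose the genes enter every r, so the 2 sets are not a finding from the correlations. Values over 12, 9 and 6 libraries cover different groups, and WT HFD has no value for Col1a1 or Col3a1.

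**Figure D3:**
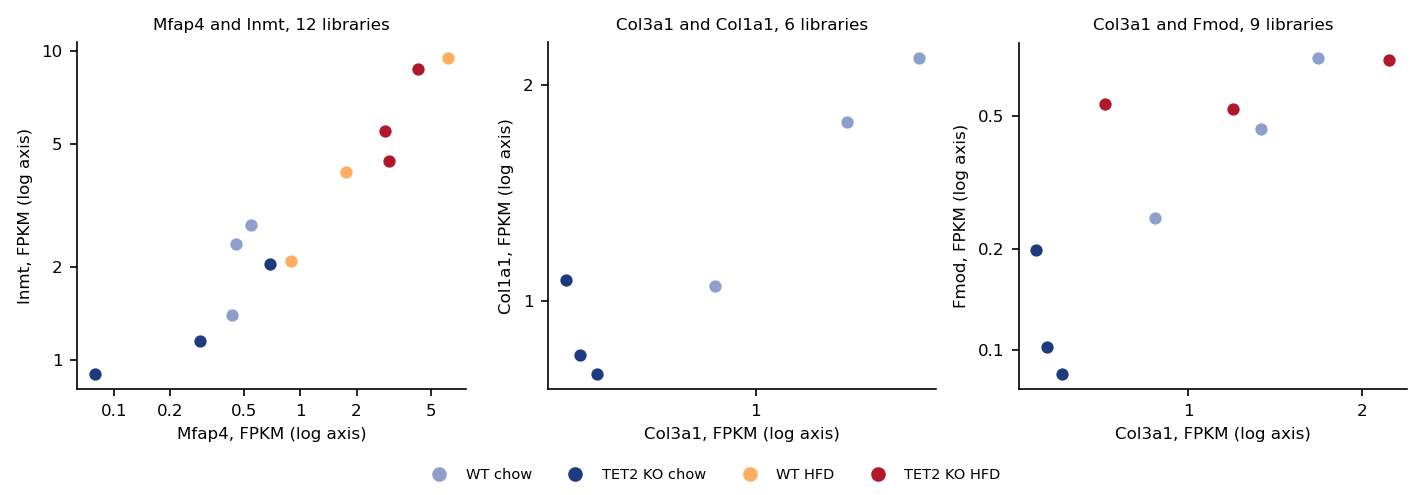
FPKM of pairs of genes (log axes), 1 point for each library with values for both, coloured by group. Mfap4 and Inmt rise together across 12 libraries, and the 3 TET2 KO chow libraries hold the lowest values of Col3a1.

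Ratios within libraries show how far each pair kept in step. Col1a1 was between 1.20 and 1.96 times the level of Col3a1 over 6 libraries, the narrowest range of the member pairs compared. Inmt was between 3.27 and 5.22 times Mfap4 in WT chow, and between 1.53 and 2.33 times in WT HFD, so that Mfap4 had the larger relative difference between diets. In TET2 KO the ratio was between 2.98 and 11.4 on chow, the highest resting on 6 Mfap4 reads in replicate 3, and between 1.48 and 2.05 on HFD. Col3a1 was between 2.26 and 3.54 times Fmod in WT chow and between 2.75 and 7.10 times in TET2 KO chow.

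For each member the 5 genes most like it were taken from genes with a mean of at least 1 FPKM and values in the same libraries, by r on the same scale. A gene has values only where it is listed, so the genes compared, like the members, were selected on comparisons of these groups. These likenesses are descriptions. For Mfap4 they were Inmt (0.96), Mgp (0.92), Ifit1 (0.90), Prelp (0.89) and Klf11 (0.88) among 613 genes over 12 libraries. Mgp encodes matrix Gla protein, an inhibitor of calcification, Prelp a leucine-rich matrix proteoglycan, and Ifit1 an interferon-induced protein. For Inmt they were Mfap4 (0.96), Prelp (0.89), Mgp (0.86), Klf11 (0.85) and Nrgn (0.79). Mgp, Prelp and Klf11 were on both lists, which is no separate result, because Mfap4 and Inmt were themselves so alike.

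For Fmod the closest genes were Fndc9 (0.79), Msln (0.78), Rabif (0.68), Wnt11 (0.67) and Ddx3y (0.67) over 12 libraries. Msln encodes mesothelin, a marker of mesothelial cells. For Col1a1 they were Dcn (0.99), Pcolce (0.95), Pqlc2 (0.94), Clec3b (0.94) and Ddx3y (0.94) among 952 genes over the 6 chow libraries, whose genotype difference selected Col1a1. Pcolce encodes an enhancer of the protease that matures procollagen. For Col3a1 they were Igfbp6 (0.93), Wnt11 (0.93), Serping1 (0.92), Cox17 (0.92) and Pcolce (0.91) among 674 genes over 9 libraries.

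The rest of the fibroblast and extracellular matrix genes was followed with lists of 154 genes besides the members, of which 100 are listed in at least 1 table. For listed genes the quasi-likelihood test of edgeR was run on the counts, and Benjamini-Hochberg adjusted p-values were taken over the genes listed in a table. Because those genes were already selected on a p-value, the adjusted values are not a false discovery rate over all genes. The listed genes were selected on the same contrasts and counts, so these calls and counts describe them and are no independent evidence of a difference. The 154 genes together are given beside all listed genes. Counts for single lists are to be read against the share of all listed genes with higher values. That share was 46.5% for TET2 KO against WT on chow and 47.3% for HFD against chow in WT. It was 52.2% for TET2 KO against WT on HFD and 39.2% for HFD against chow in TET2 KO.

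In the chow comparison of TET2 KO with WT, 25 of the 154 genes are listed, 5 with higher and 20 with lower values in TET2 KO. Their median log2 fold change was -1.04, against -0.37 over all 1298 listed genes. At an unadjusted edgeR p under 0.05, 3 were higher and 19 lower, where 30.6% of the whole table was called higher and 46% lower. At an adjusted p under 0.05 edgeR called 0 of them, as it called 0% of all listed genes (the lowest adjusted p in the table was 0.0557), while DESeq2 on the same counts called 13 of the 25 and 28.5% of all listed genes. Fibrillar collagen partners and proteoglycans were on the low side with the members. Col1a2, the partner chain of Col1a1, measured 1.14, 1.28 and 0.745 FPKM in WT chow and 0.452, 0.492 and 0.553 FPKM in TET2 KO chow, without overlap (log2 fold change -1.09, SE 0.24). Dcn measured 3.86, 4.03 and 1.66 FPKM in WT chow and 1.20, 1.28 and 1.69 FPKM in TET2 KO chow, where only the lowest WT library overlapped (-1.20, SE 0.35).

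By role, all 4 listed small leucine-rich proteoglycans of 12 and both listed fibrillar collagens of 9 were lower. Both listed collagen-modifying genes of 22 were lower too, and so were 6 of 7 listed adventitial fibroblast genes of 19. Over all genes listed for this comparison 695 of 1298 were lower, so the direction of 2 to 4 genes in a role says little. Gpc3, which encodes a cell-surface proteoglycan of alveolar fibroblasts, had a log2 fold change of -1.63 (SE 0.40), Clec3b, which encodes tetranectin, -1.45 (SE 0.35), and Col14a1, a fibril-associated collagen, -1.09 (SE 0.27). Elastic fibre genes were split, with 2 of 4 higher. Efemp1, a fibulin, had -0.71 (SE 0.26), whereas Eln (elastin) had 0.94 (SE 0.46) and Mfap2, another microfibril gene, 1.08 (SE 0.44). Of 6 listed alveolar and general lung fibroblast genes of 25, 4 were lower. The 3 fibroblast markers with higher values were Npnt, which encodes the matrix protein nephronectin (0.98, SE 0.38), Thy1 (0.62, SE 0.23), which also marks T cells, and Ly6c1 (1.08, SE 0.49), which also marks endothelial cells.

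Markers of other cells moved in the same comparison. Of 12 mesothelial markers 5 are listed, and all were lower in TET2 KO (median of the log2 fold changes -1.90). Their summed level was 4.68, 9.01 and 1.59 FPKM in WT chow and 1.52, 1.40 and 0.782 FPKM in TET2 KO chow. WT chow replicate 3, the lowest WT library for Fmod, Col1a1, Col3a1 and Dcn, was also the lowest for the mesothelial sum, and Msln was the most abundant of these genes. Of 16 lung epithelial markers 3 are listed, all lower, and their sum was 5191 ± 773 FPKM in WT chow and 2782 ± 380 in TET2 KO chow (SD, n = 3 each), nearly all from Scgb1a1, the club cell secretoglobin. Of 12 T cell markers 9 are listed, all higher, with a sum of 188 ± 45.3 FPKM in WT chow and 304 ± 48.8 in TET2 KO chow, and Tcf7 was the most abundant. Only 2 of 20 endothelial markers are listed, Ramp2 and Calcrl, with a sum of 52.4, 54.1 and 113 FPKM in WT chow and 244, 99.8 and 82.3 FPKM in TET2 KO chow (Calcrl the most abundant). The groups overlapped, and WT chow replicate 3, the low WT library above, was the highest WT library for this sum. It was also the highest of the WT chow libraries for Pecam1, the gene of CD31, at 79.9 FPKM against 44.1 and 36.0. No listed marker of these lists was at 0 in any chow library, and the part of these cells in the result was not tested.

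For HFD against chow in WT 71 of the 154 genes are listed, 57 with higher and 14 with lower values on HFD. Their median log2 fold change was 0.98, against -0.32 over all 7330 listed genes. At an adjusted edgeR p under 0.05, 48 were higher and 13 lower, where 86.8% of all listed genes were called in either direction. These 61 calls became 16 without WT HFD replicate 1, 19 without WT chow replicate 2 and 40 without WT chow replicate 1. At an unadjusted p under 0.05, 53 were higher and 13 lower, where 42.4% of the whole table was called higher and 49.2% lower. All 11 listed alveolar and general lung fibroblast genes of 25 had higher values, with a median of 1.46, where 3469 of all 7330 listed genes were higher. The libraries did not overlap for 5 of these 11, a smaller share than among all listed genes, and 8 of 11 had an adjusted p under 0.05. Tcf21, a transcription factor of alveolar fibroblasts, stood at 2.27 on the log2 fold change scale (SE 0.83), with overlapping libraries and 4 to 13 reads in WT chow. Itga8, an integrin chain on the pericyte list, had 1.68 (SE 0.46) and Cthrc1, a collagen-triple-helix protein of activated fibroblasts, 1.42 (SE 0.34).

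Of 16 elastic fibre genes other than Mfap4, 8 are listed for HFD against chow in WT, all 8 with higher values on HFD. Eln went from 2.38 ± 0.691 to 7.34 ± 2.87 FPKM (a log2 fold change of 1.63, SE 0.33) and Mfap2 from 8.86 ± 4.06 to 25.6 ± 10.2 FPKM (1.54, SE 0.39; SD, n = 3 each). All 3 listed proteoglycans of 12 and all 7 listed basement membrane and other collagens of 12 were also higher. Among the genes lower on HFD were Adamts2, the protease that trims procollagen ends (-1.11, SE 0.36), and Ctsk, a collagen-degrading cathepsin (-1.67, SE 0.32).

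Endothelial markers moved the same way in WT. Of 20 endothelial markers 17 are listed, all with higher values on HFD, and their summed level was 410, 364 and 987 FPKM in WT chow and 1941, 1540 and 1085 FPKM in WT HFD, with Cldn5 the most abundant. The HFD libraries were all above the chow libraries, and WT HFD replicate 1, the highest for Mfap4 and Inmt, was the highest here too. WT HFD replicate 2, the lowest HFD library for Mfap4 and Inmt, was not the lowest for the endothelial sum. Adipocyte markers were lower, 5 of 6 listed of 10 (sum 72.2 ± 20.4 FPKM in WT chow and 32.1 ± 7.64 in WT HFD). This sum was nearly all Cidec, at 70.5 FPKM in WT chow and 31.6 FPKM in WT HFD. Of lung epithelial markers 8 of 16 are listed, 5 higher and 3 lower, with a sum of 5336 ± 822 FPKM in WT chow and 3834 ± 1318 in WT HFD. This sum was mostly Scgb1a1, at 5038 FPKM in WT chow and 3358 FPKM in WT HFD. Among the 5 higher genes were Sftpb (170 to 317 FPKM), Ager (17.9 to 45.0) and Hopx (13.8 to 31.2). Of monocyte and macrophage markers 6 of 15 are listed, 3 higher and 3 lower, with a sum of 2444 ± 712 FPKM in WT chow and 1319 ± 374 in WT HFD. This sum was mostly Chil3, at 2224 FPKM in WT chow and 1058 FPKM in WT HFD. Mrc1 and Marco were lower on HFD too, while Csf1r (69.4 to 160 FPKM), Ly6c2 (14.5 to 26.3) and Ccr2 were higher. Of mesothelial markers 4 of 12 are listed, 2 higher and 2 lower with a median of -0.06. Their sum was 106 ± 27.7 FPKM in WT chow and 59.4 ± 7.97 in WT HFD. Krt19, a keratin of airway epithelium too, made up most of it, at 101 FPKM in WT chow and 51.5 FPKM in WT HFD. Cpe and Rspo1 were higher on HFD, with log2 fold changes of 0.90 (SE 0.36) and 0.85 (SE 0.28). Muc16 was lower, like Krt19 (-0.97, SE 0.47). The part of these cells in the result was not tested.

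For TET2 KO against WT on HFD, where Fmod alone of the members is listed, 33 of the 154 genes are listed. Of these, 6 had higher and 27 lower values in TET2 KO, the opposite side from Fmod, with a median log2 fold change of -0.77 against 0.33 over all 3939 listed genes. Adjusted edgeR p-values under 0.05 were found for 0 higher and 16 lower, where 27.5% of all listed genes passed. DESeq2 called all 33 and 83.1% of all listed genes, and edgeR with TMM called 28 and 58.9%. The 16 calls lay at the threshold, since the lowest adjusted p in the table was 0.0499, and 0 were called without any 1 of the 3 WT HFD libraries, without TET2 KO HFD replicate 2, at a mean normalized count of at least 10 or with adjustment over all 9338 genes. At an unadjusted p under 0.05, 5 were higher and 25 lower, where 43.1% of the whole table was called higher and 39.1% lower. No other small leucine-rich proteoglycan is listed here. Mfap2 was at 25.6 ± 10.2 FPKM in WT HFD and 10.7 ± 2.77 FPKM in TET2 KO HFD (log2 fold change -1.26, SE 0.31, SD, n = 3 each). Of 20 endothelial markers 16 are listed, all lower in TET2 KO, and their sum was 2114, 1642 and 1159 FPKM in WT HFD and 1123, 619 and 653 FPKM in TET2 KO HFD, again with Cldn5 the most abundant. All 3 listed lung epithelial markers of 16 were lower too (sum 77.8 ± 8.32 FPKM in WT HFD and 40.6 ± 10.3 in TET2 KO HFD, Ager the most abundant). All 4 listed monocyte and macrophage markers of 15 were lower, with a median log2 fold change of -2.77, and their sum was 59.9, 28.6 and 561 FPKM in WT HFD and 22.5, 38.7 and 44.1 FPKM in TET2 KO HFD, so that WT HFD replicate 3 alone stood apart. The part of these cells in the result was not tested. Msln, the only mesothelial marker of 12 listed, was on the same side as Fmod, with a log2 fold change of 0.96 (SE 0.47) and overlapping libraries.

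For HFD against chow in TET2 KO, which lists 4 members, 32 of the 154 genes are listed, 24 with higher and 8 with lower values on HFD. Their median log2 fold change was 0.94, against -0.51 over all 1628 listed genes. At an unadjusted edgeR p under 0.05, 20 were higher and 6 lower, where 29.3% of the whole table was called higher and 47.7% lower. At an adjusted p under 0.05 edgeR called 0 of them and 0.123% of all listed genes, while DESeq2 called 26 of the 32 and 69.7% of all listed genes. Scaling by the trimmed mean of M values (TMM) over the listed genes in place of the authors' size factors moved the median over all listed genes from -0.51 to -0.26, and edgeR then called 25 of the 32 and 48.8% of all listed genes. With the replicate block it called 14 and 28.1%.

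All 6 listed small leucine-rich proteoglycans of 12 were on the side of Fmod in this comparison. Ogn, or osteoglycin, measured 0.539, 0.339 and 0.404 FPKM in TET2 KO chow and 1.26, 0.763 and 2.17 FPKM in TET2 KO HFD, without overlap (log2 fold change 1.71, SE 0.42). Dcn had 0.92 (SE 0.38), Bgn (biglycan) 0.94 (SE 0.38) and Prelp 0.76 (SE 0.36), all with overlapping libraries. Gpc3 measured 0.644, 0.835 and 0.564 FPKM on chow and 2.07, 2.37 and 4.03 FPKM on HFD, without overlap (2.05, SE 0.32). Mgp measured 8.64, 6.98 and 6.60 FPKM on chow and 13.1, 19.0 and 16.8 FPKM on HFD (1.14, SE 0.22). Fn1 (fibronectin), which macrophages also make, was on the other side (-1.22, SE 0.45), as was Mfap2 (-0.81, SE 0.38).

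Mesothelial markers were on the side of the members here as well. Of 12 markers 10 are listed, 9 with higher values and Krt19, a keratin of airway epithelium too, with a lower one (-0.85, SE 0.37). Msln measured 0.576, 0.560 and 0.179 FPKM in TET2 KO chow and 1.41, 3.16 and 2.56 FPKM in TET2 KO HFD (log2 fold change 2.43, SE 0.49), and Upk3b 0.538, 0.445 and 0.344 FPKM and 1.32, 2.28 and 1.85 FPKM (2.04, SE 0.29). Both separated the diets completely. Because Krt19 was by far the most abundant marker, the sum over the list went the other way, from 104 ± 37.7 to 71.7 ± 28.8 FPKM (SD, n = 3 each). Only 1 of 20 endothelial markers, Emcn, is listed, with 2.41 ± 0.392 FPKM on chow and 4.75 ± 2.17 on HFD. All 5 listed monocyte and macrophage markers of 15 had lower values on HFD, with a sum of 6984 ± 1388 FPKM on chow and 3885 ± 1092 on HFD (SD, n = 3 each) and Lyz2 the most abundant. Over all listed genes of this comparison 990 of 1628 were lower, and the groups did not overlap for 72.8%. Beside this, all 5 listed T cell markers of 12 were lower without overlap. Their sum was 220 ± 34.2 FPKM on chow and 143 ± 22.0 on HFD, with Tcf7 the most abundant. The part of these cells in the result was not tested.

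**Figure D4:**
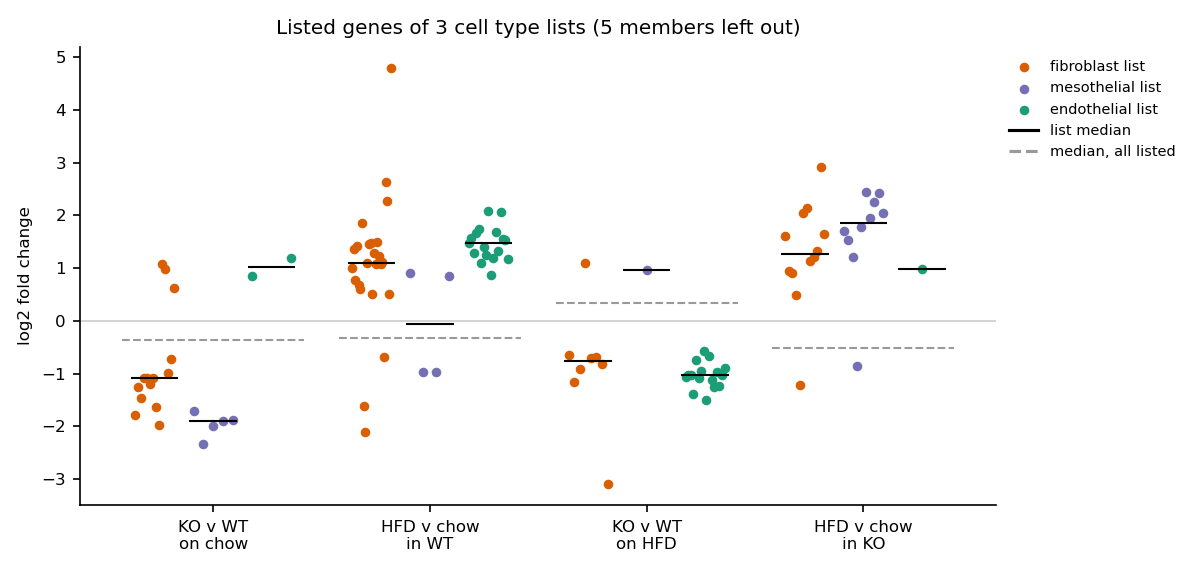
Log2 fold change of the listed genes of the fibroblast lists (without the 5 members), the mesothelial list and the endothelial list in each comparison, 1 point per gene. Solid lines are list medians and dashed lines the median over all genes listed in that table. The fibroblast median is -1.09 for KO against WT on chow, and the mesothelial median of -1.90 lies below it.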

How the data were processed

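Per the study's methods and the submitters' processing notes, the authors aligned paired-end reads to mm10 by HISAT2, and took counts for genes from featureCounts and group comparisons from DESeq2 (versions not given in the sources used here). The deposited tables hold raw read counts, a normalized signal (the count divided by a DESeq2 size factor of the library) and FPKM computed by the authors. The authors' fold changes, p-values, adjusted p-values and group means were not used. Of the listed genes, 9328 were found in GENCODE M21, 97.1% at the same position. Library totals were recovered from count, gene length and FPKM.

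Size factors recovered from genes with over 50 reads scaled the counts in edgeR 4.0.16 (R 4.3.3), fitted on all genes listed in a table with the 3 libraries of each group and no covariate. The SE of an edgeR log2 fold change was its absolute value divided by the square root of the quasi-likelihood F statistic. It therefore restates that test. Dispersions were estimated over genes already selected on a p-value, so the SEs may be too small. Alternatives were library totals, TMM, DESeq2 1.42.0, limma 3.58.1, a mean normalized count of at least 10, adjustment over all 9338 genes, a log2 fold change over 1, the replicate block and leaving out each library. Counts at an unadjusted p under 0.05, and leaving out libraries for contrasts in which a member is not listed, were added after the data were seen. On data simulated for HFD against chow in WT (6937 genes, 200 changed), edgeR recovered 151 with 6 false calls. The simulation used the same dispersion for every gene and no selection on a p-value. It therefore does not give the rates of recovery or false calls for the real counts. Library totals were between 36.7 and 56.8 M reads on genes. Groups came from the sample labels. List genes that are listed in the same tables as most members were picked for naming, up to 4 per list by mean FPKM. Not all of them are given with values, and others, among them Gpc3, Npnt, Tcf21, Pdgfra and Ogn, were named outside this rule. Endothelial, T cell and other markers were named for their level. The members and lists were chosen with earlier results of these data known. Summaries, permutation tests and figures were made in Python 3.11.15 (scipy 1.17.1, pandas 2.3.3, numpy 2.4.6, matplotlib 3.10.9).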

Additional observations from a re-analysis of the deposited data

Results flagged for a closer look

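Fmod was singled out because every TET2 KO library moved one way on chow and the opposite way on HFD. Its log2 fold change for TET2 KO against WT was -1.91 on chow and 0.99 on HFD, and the libraries overlapped on neither diet. Each contrast was selected by being listed, and the difference between them was not tested. The TET2 KO chow value rests on 12 to 26 reads per library.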

How the results depend on the processing

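The log2 fold changes of the members kept their direction under every alternative run. Of these, only the value of Mfap4 for HFD against chow in WT (2.64) moved by more than the spread of the replicates, to 1.48 without WT HFD replicate 1, and its range over left-out libraries was 1.48 to 3.07. The number of fibroblast and matrix genes called at an adjusted p under 0.05 was less stable. For TET2 KO against WT on chow it was 0 with edgeR, 13 with DESeq2, 8 with limma, 22 at an unadjusted p, and 0 to 8 without single libraries (8 without WT chow replicate 3). For HFD against chow in WT it was 61, with 38 at a log2 fold change over 1 and 16 to 53 without single libraries (16 without WT HFD replicate 1, 19 without WT chow replicate 2, 40 without WT chow replicate 1). For TET2 KO against WT on HFD it was 16, with 28 under TMM, 33 with DESeq2, 0 at a mean normalized count of at least 10, 0 when adjusted over all distinct genes, 6 at a log2 fold change over 1, 30 at an unadjusted p, and 0 to 20 without single libraries (0 without any of the 3 WT HFD libraries or TET2 KO HFD replicate 2). For HFD against chow in TET2 KO it was 0, with 25 under TMM, 26 with DESeq2, 1 with limma, 1 at a mean normalized count of at least 10, 26 at an unadjusted p, and 0 to 11 without single libraries (11 without TET2 KO chow replicate 3, 8 without TET2 KO HFD replicate 2). The causes were not tested.

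Where a member is not listed, the difference between TET2 KO and WT on HFD ran from -0.00086 to 1.33 for Mfap4 and from -0.050 to 1.02 for Inmt without single libraries, and it reversed without WT HFD replicate 2 in both. With log2(FPKM + 1) the differences kept their direction and were smaller. On chow they were then -0.15 for Mfap4 and -0.43 for Inmt, and on HFD 0.37 and 0.36. For Fmod, HFD against chow in WT, the value was -0.18.

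Replicate numbers are shared between groups, but libraries with the same number did not deviate together in every pair (correlations of deviations from -0.14 to 0.21), so they were not taken as pairs. With the replicate block, fibroblast and matrix genes called were 0, 46, 22 and 14 in the order above, and the log2 fold change of Fmod for TET2 KO against WT on chow was -1.86.

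Since the tables hold only genes selected on their p-value, genes outside them were not analysed here, apart from members in contrasts that do not list them, and no group of 3 libraries allows an exact permutation p below 0.1.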
